A study of Homo sapiens with 4 samples.

Results

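Probes against LacZ, a bacterial mRNA, gave peaks in 599 regions of the human genome where neither set of probes against ZNF609 had a called peak. The lists hold called peaks only, so weaker recovery by the ZNF609 probes cannot be told from none. The regions are the peaks of the LacZ list that shared 0 bases with any peak of the even and odd lists, strand ignored. They make up 599 of the 722 LacZ peaks (83.0%, 95% interval 80.02 to 85.64%) and 599 of the 1766 peaks in the 3 lists. By the same measure 374 of the 502 even peaks (74.5%) and 399 of the 542 odd peaks (73.6%) shared no base with either other list. Most peaks of each list were thus alone. The members were thus chosen by where peaks were called, so their absence from the even and odd lists is the rule and not a finding. They held 173295 of the 219401 reads in LacZ peaks (79.0%) and covered 167280 bases.

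The material was RD, a line established from an embryonal rhabdomyosarcoma, a childhood tumour with features of skeletal muscle. The even and the odd biotinylated probes were directed at exon 2 of ZNF609, the exon that forms the circular RNA circ-ZNF609, and the LacZ probes served as the control. Each probe set was represented by 1 library, and the input sample was not analysed here. With 1 library per probe set no difference between probe sets has a replicate check, and no test between them was made. All intervals are exact Clopper-Pearson intervals and cover counting error only. They count each peak as independent, though several peaks can lie in 1 gene. The lists come from bulk RNA, so fewer cells holding an RNA and less of that RNA per cell cannot be told apart.

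In a pull-down of this kind, biotinylated antisense probes pair with their target RNA and are collected on streptavidin beads. Human cells make no LacZ mRNA, so a LacZ control set records RNA recovered without the intended target. Such controls are used to tell RNA bound through the target from RNA that the procedure recovers in any case.

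The 12 RD markers, among them genes of the myogenic programme, held 0 LacZ-alone peaks. Such peaks lay in 372 of the 58989 annotated genes, so 0 of 12 is near that share and nothing is read from it. MYOD1, MYOG, MYF5 and PAX7 held no peak in any list. CDH15, a cadherin of muscle precursors, and TNNT2, a troponin of striated muscle, held LacZ peaks that an even or odd peak shared. Of the RD markers 5 held an even peak and 3 an odd peak. The 7 blood and immune, 3 endothelial and 3 neuronal markers held no peak in any list, and of 4 epithelial markers KRT18 held an odd peak.

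Some of the 599 regions lay over the hairpin of an annotated miRNA, a stem-loop that is cut from a longer transcript to give the mature arms. Of these, 3 are shown because they are places where an annotated RNA sequence under a member can be printed. All hairpins of the table (1562) were searched, and the sequences are those of RefSeq on GRCh38.p14. Capitals mark the mature arms.
MIR6802: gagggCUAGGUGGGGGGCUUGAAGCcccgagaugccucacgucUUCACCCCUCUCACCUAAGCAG
MIR6819: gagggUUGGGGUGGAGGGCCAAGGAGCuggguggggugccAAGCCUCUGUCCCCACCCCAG
MIR943: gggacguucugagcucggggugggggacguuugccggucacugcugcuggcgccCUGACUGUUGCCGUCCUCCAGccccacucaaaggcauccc
PPP6R1 was named after its values were seen. MIR6802 (chr19:55239912-55239976, minus strand) lay whole under a peak in PPP6R1, a regulatory subunit of protein phosphatase 6, at 75.3 reads per bin, where a bin is a window of 170 bases. MIR6819 (chr22:36286847-36286907, minus strand) lay whole under a peak in MYH9, the heavy chain of nonmuscle myosin IIA, at 247.5 reads per bin. MIR943 (chr4:1986384-1986477, minus strand) shared 67 of its 94 bases with a peak in NELFA, a subunit of the negative elongation factor, at 275 reads per bin. These 3 hairpins were 63.1 to 70.5% G and C. In the other lists 1 peak lay over a hairpin, an even peak in UBTF over MIR6782.

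Other members reached the first bases of genes. The window from 250 bases before to 50 bases after an annotated start was touched by 14 of the 599 (2.34%, 1.28 to 3.89%), against 5 of 374 even-alone and 12 of 399 odd-alone peaks. The 19 windows touched had a median of 67.0% G and C, against 58.7% over all 35116 windows given by RefSeq. The medians were 63.2% for the 6 windows of even-alone and 65.3% for the 14 windows of odd-alone peaks, so a level above that of all windows was shared by the 3 lists. The letters GGGCGG, searched on both strands, were in 13 of the 19 windows (68.4%) and in 45.0% of all windows, and in 6 of 6 windows of even-alone and 8 of 14 of odd-alone peaks. A match of letters is a description and not a bound site.
The 250 bases before the start of 3 such genes are printed for GRCh38.p14 from RefSeq, chosen after their values were seen, because the peak ran upstream of the annotated start. Capitals mark the bases under the LacZ peak.
EIF5B: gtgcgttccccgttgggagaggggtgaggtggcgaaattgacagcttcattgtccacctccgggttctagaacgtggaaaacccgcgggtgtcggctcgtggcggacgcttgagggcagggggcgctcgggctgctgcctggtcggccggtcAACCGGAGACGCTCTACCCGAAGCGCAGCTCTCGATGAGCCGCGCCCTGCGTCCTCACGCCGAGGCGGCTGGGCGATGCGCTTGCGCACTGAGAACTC
ATP5ME: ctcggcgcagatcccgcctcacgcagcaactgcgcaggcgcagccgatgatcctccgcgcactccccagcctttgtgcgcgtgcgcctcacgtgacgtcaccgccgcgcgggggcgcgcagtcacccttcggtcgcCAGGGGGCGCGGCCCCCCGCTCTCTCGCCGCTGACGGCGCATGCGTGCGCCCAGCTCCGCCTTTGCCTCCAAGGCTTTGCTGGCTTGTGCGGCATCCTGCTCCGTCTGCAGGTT
SPOUT1: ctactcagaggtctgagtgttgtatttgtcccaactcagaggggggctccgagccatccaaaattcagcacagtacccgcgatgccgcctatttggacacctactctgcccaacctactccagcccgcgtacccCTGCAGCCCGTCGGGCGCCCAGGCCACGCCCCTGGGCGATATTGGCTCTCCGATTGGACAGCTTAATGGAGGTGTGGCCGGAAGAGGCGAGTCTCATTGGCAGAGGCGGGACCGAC
EIF5B, which joins the ribosomal subunits at the start of translation, has this stretch at chr2:99337139-99337388 on the plus strand. Its peak covered 98 of the 250 bases, at 123.5 reads per bin. ATP5ME, a subunit of mitochondrial ATP synthase, has it at chr4:674277-674526 on the minus strand, with 114 bases under a peak at 198 reads per bin. MYL5 starts just beyond this stretch, on the other strand (first base 674542), and without strand in the lists reads of the pair cannot be told apart. SPOUT1 has it at chr9:128829795-128830044 on the minus strand, with 116 bases under a peak at 154 reads per bin, inside the span of the readthrough gene KYAT1-SPOUT1. GGGCGG was in none of the 3 printed stretches.

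The members ranged from 38 to 2203 reads per bin, with a median of 110 and quartiles of 67 and 178. The 123 LacZ peaks shared with another list had a median of 132. Of the members, 111 reached 200 reads per bin, 19 reached 500 and 4 reached 1000. Reads are not scaled to library size, and the weakest called peak had 108 reads per bin among even and 105 among odd peaks. Of the members, 275 lay below 105, a level at which neither other list had a peak, and 324 (54.1%) at or above it. By the deposited p-value, 5 of the 10 first LacZ peaks were members, as were 36 of the first 50, 74 of the first 100 and 148 of the first 200. Members were 83.0% of the whole LacZ list, a higher share than in any of these ranks.

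Most members covered 1 or 2 bins. Of the 599, 292 were 1 bin wide (48.7%, 44.7 to 52.8%), 239 were 2 bins, 58 were 3 and 10 were 4. The share of 1 bin was 38.2% (29.6 to 47.4%) for shared LacZ peaks, 54.0% for even-alone and 58.1% for odd-alone peaks.

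Column 8 of the lists, an unnamed score with steps of 1/4434, is given for each member. Its meaning is not stated in the sources. The 49 members at 1 step (up to 0.001 above it) ranged from 38 to 372 reads per bin with a median of 55. The 175 members over 1 and up to 10 steps ranged from 39 to 374 reads per bin with a median of 66, and the 165 over 10 and up to 40 steps from 48 to 2203 with a median of 96. The 47 members over 40 steps ranged from 101 to 952 with a median of 195. The lowest and the median reads were thus higher in each successive range, and the highest were not. At 45 reads per bin the deposited p-value of 1-bin members was 0.00549 at 1 step and 0.00978 at 8 steps. No listed p-value exceeds 0.00999867, so a higher score needs more reads to be listed. That limit sets the rise of the lowest reads and bears on the medians, so the rise is no finding about the members. The order by reads was not the order by p-value: a NELFA peak with 275 reads per bin at 2 steps ranked 16, and a peak of the microtubule protein MAP1A with 438 at 89 steps ranked 440. In 163 members (27.2%, 23.7 to 31.0%) at least 1 bin carried the fixed value of 0.01, which is 44.3 steps and no whole number of them. It is named the stand-in value below. The share was 4.88% (1.81 to 10.3%) of shared LacZ peaks, 13.9% of even-alone and 5.01% of odd-alone peaks.

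**Figure D1:**
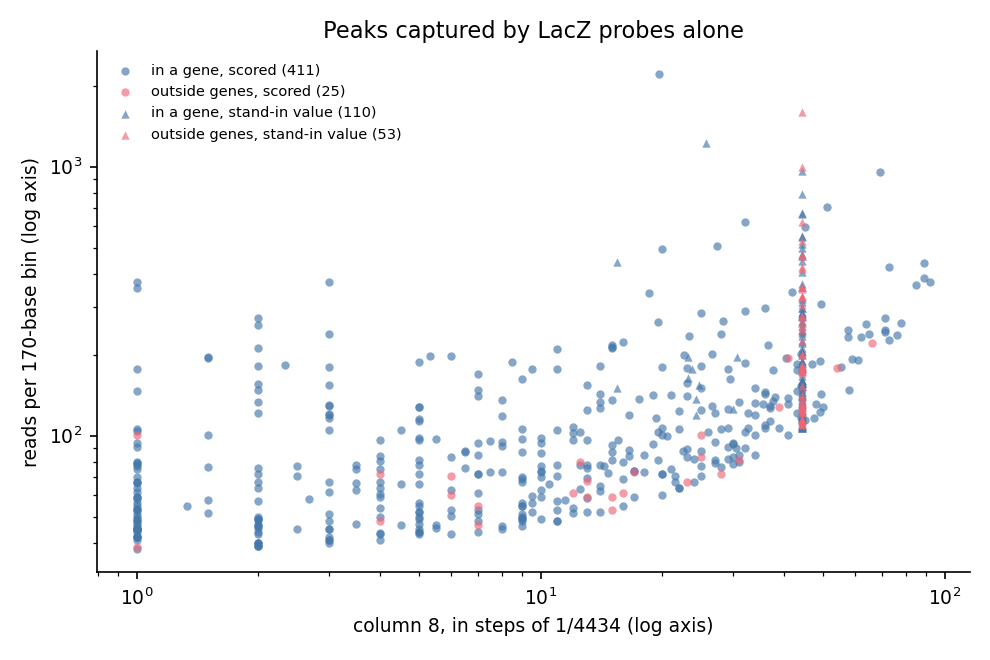
Reads per 170-base bin against the column 8 score in steps of 1/4434 (both log axes) for the 599 LacZ-alone peaks, blue in genes and red outside them, with triangles for stand-in peaks. The scored members have a median of 82 reads per bin and the stand-in members a median of 174.5. The fewest reads among members rise from 39 at over 1 to 10 steps to 101 at over 40 steps, a rise set by the p-value limit of the lists.

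Few members lay near the line that chose them. The median gap to the nearest even or odd peak was 674220 bases over 593 members, and 6 members were on sequences with no such peak. A gap of 0 bases, with no base shared, was found for 4: JUN (70 reads per bin, beside an odd peak of 286), RILPL1 (76, beside an even peak of 271), SPTBN1 (148, beside an odd peak of 219) and PRELID1 (243, beside an odd peak of 167). RRP12 (57.5) and a further SPTBN1 peak (46) were 170 bases away. JUN, RILPL1 and PRELID1 were named after their values were seen. On the other side of the line, 68 shared LacZ peaks shared exactly 170 bases, and the 21 of them wider than 1 bin had 50 to 352.5 reads per bin, with a median of 138.5.

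By annotation, 489 members lay in protein-coding genes (81.6%, 78.3 to 84.7%), 27 in long noncoding RNA genes (4.51%, 2.99 to 6.49%), 5 in pseudogenes (0.835%) and 78 outside genes (13.0%, 10.4 to 15.98%). Of the 123 shared LacZ peaks, 122 lay in coding genes and 1 outside genes (0.813%, 0.0206 to 4.45%). The share outside genes was 5.61% (3.51 to 8.46%) of even-alone and 1.504% (0.554 to 3.24%) of odd-alone peaks. Without peaks holding the stand-in value the shares were 5.73% (3.74 to 8.35%), 0.932% and 0.792%. The annotation is by gene span, so exons, introns and UTRs were not told apart, and 52 members lay in more than 1 gene.

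**Figure D2:**
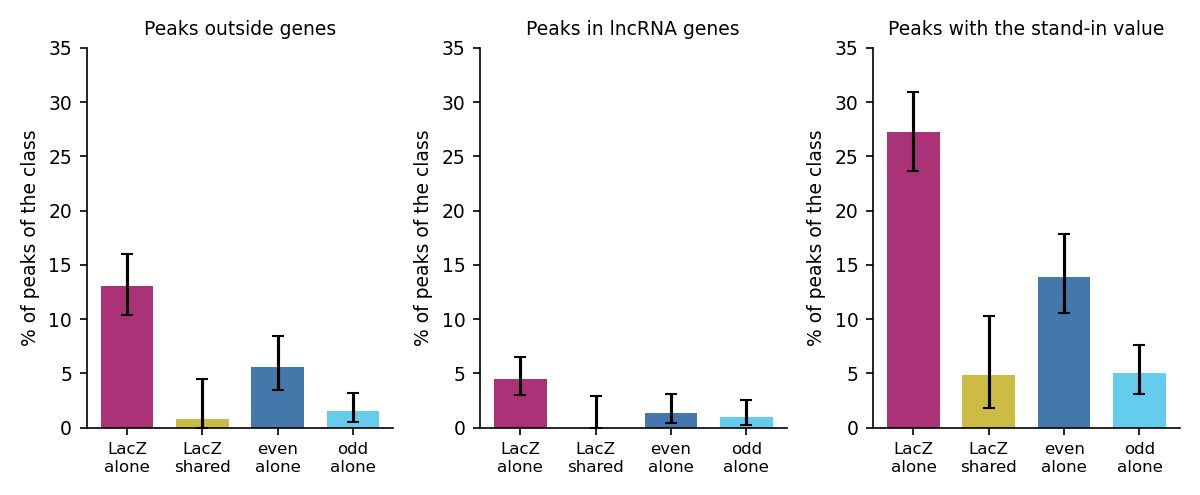
Share of peaks (%) outside genes, in long noncoding RNA (lncRNA) genes and with the stand-in value, for LacZ-alone, shared LacZ, even-alone and odd-alone peaks, with 95% exact intervals of counting error. LacZ-alone peaks lie outside genes in 13.0% and hold the stand-in value in 27.2%, against 0.813% and 4.88% of shared LacZ peaks.

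The 78 regions outside genes held 39330 reads, 22.7% of the members' reads. The region with most reads per bin was chr14:71138371-71139050 with 1604.5, 22989 bases from PCNX1. It was followed by chr4:26498241-26498750 with 1001 (7757 bases from CCKAR), chr14:65127341-65127850 with 621 (2799 bases from RNU2-14P) and chr5:42820621-42820960 with 528 (8729 bases from SELENOP). Next were chr20:37411391-37411730 with 469.5 (5341 bases from SRC) and chr1:242719541-242719880 with 464 (52690 bases from RSL24D1P4). The distance to the nearest gene ranged from 283 to 373004 bases with a median of 14034, and 4 regions were within 1000 bases. The stand-in value was in 53 of the 78 (67.9%, 56.4 to 78.1%) and in 110 of the 521 members in genes (21.1%, 17.7 to 24.9%). Chromosome Y held 5 of these regions and a contig 1, where neither other list had a peak.

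The members with the stand-in value held 92344 reads, 42.1% of all reads in LacZ peaks, and the 436 others 80951. Their median was 174.5 reads per bin against 82 for the others and 195 for the 47 others over 40 steps, and 23.9% were 1 bin wide against 58.0%. Of the 27 members in long noncoding RNA genes 21 carried it. The genes they lay in had a median span of 80312 bases against 44140, and 31 of 110 lay in genes of at least 200000 bases (28.2%) against 45 of 411 (10.9%). The same differences in direction were seen in the other lists: medians were 519 against 226 reads per bin among even-alone and 425 against 197 among odd-alone peaks, and 44.1% against 6.27% and 23.5% against 10.1% of those in genes lay in genes of at least 200000 bases. Reads per bin, width and gene span all move with the stand-in value, and their part in these shares was not tested. The stand-in value is a high score, so the p-value limit of the lists bears on these medians. The fewest reads among members with it were 107 per bin.

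Long noncoding RNA genes with most reads per bin were LOC105373963 (553), LOC105377431 (447.5, 4 bins wide) and LINC00635 (314), of which the first and the last were named after their values were seen. Among pseudogenes RPSAP52 had 176.5, RNA18SP5, a copy of the 18S ribosomal RNA gene, 137.5, and SERBP1P1 and TPM4P2 45.5 and 42. All were named after their values were seen, and reads of near-identical copies could have been placed on either.

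The most strongly recovered gene was NACC1, which encodes a BTB-domain transcriptional corepressor. Its peaks had 1226.5 (chr19:13137261-13137600) and 2203 reads per bin (chr19:13138111-13138620), and the deposited p-value of the latter is listed as 0. Together they held 9063 reads, 4.13% of all reads in LacZ peaks. No even or odd peak lay in NACC1.

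Other genes carried a single strong LacZ-alone peak. SGCZ, the zeta subunit of the sarcoglycan complex, had 960.5 reads per bin over 4 bins. PDE4B, a phosphodiesterase that degrades cyclic AMP, had 792.5, PELI1, an E3 ubiquitin ligase, 673, and MYOF, a membrane-repair protein of the ferlin family, 665. All 4 carried the stand-in value. ARL6IP4, named after its values were seen, had a single scored peak of 952 over 1 bin at 69 steps. PCDH15, a cadherin of sensory hair cells, had 277.5 over 4 bins, also with the stand-in value. Scored peaks with small p-values were PPP1R26, a regulatory subunit of protein phosphatase 1 (339), PTK2, the focal adhesion kinase (257, 2 steps), and SF3A1 of the U2 snRNP (239, 3 steps). SF3A1 also held 1 shared LacZ peak and 1 even peak.

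CCDC50 had 3 peaks of 624, 709 and 597 reads per bin, and CHLSN had 496, 506 and 206. XAB2, a protein of splicing and of transcription-coupled repair, had 374 and 549.5. NELFA had peaks of 275, 354 and 372 in a stretch of 3570 bases, all scored at 1 to 2 steps. DOCK1, an activator of the GTPase Rac, had 5 peaks of 107, 284, 289, 195.5 and 516.5 along a stretch of 67660 bases, all with the stand-in value. Some of the DOCK1 peaks also lie in LOC105378551, and reads of these overlapping genes cannot be told apart. The 10 genes with most reads held 29302 reads.

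Members gathered in some genes. Of the 372 genes with a LacZ-alone peak, 271 held 1, 68 held 2, 25 held 3 and 8 held at least 4. The genes with at least 2 numbered 101 (27.2%) and held 250 members. The share was 30.5% of 239 genes with even-alone and 38.9% of 252 genes with odd-alone peaks. MYH9 held 7 LacZ-alone peaks of 77, 125, 247.5, 157, 201.5, 260 and 72 reads per bin over 16660 bases at 81.0 to 96.3% of its span, and also 3 shared LacZ, 1 even and 4 odd peaks. IQCE held 6 peaks of 78.5, 180, 197, 188, 178 and 181 over 10710 bases and no peak of another list.

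SMARCA4, the ATPase of the SWI/SNF remodelling complex, held 5 peaks of 263, 103, 48, 52 and 55 reads per bin. PRKCSH, the beta subunit of glucosidase II, held 4 of 116.5, 106, 135 and 106. MYBL2, a cell-cycle transcription factor, held 78.5, 121, 48.5 and 50. MYO18A, an unconventional myosin, held 63, 75.5, 66.5 and 40, and COL3A1, the chain of type III collagen, 51, 61, 43 and 41. In reads per bin SMARCA4 was thus uneven, with 1 peak well above the other 4, while the peaks of PRKCSH and COL3A1 lay close together. By p-value that SMARCA4 peak ranked 633 in the LacZ list, behind the other 4 at 468 to 621. SMARCA4 and PRKCSH also held 1 odd peak each, MYO18A 2 odd peaks and COL3A1 1 even peak.

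**Figure D3:**
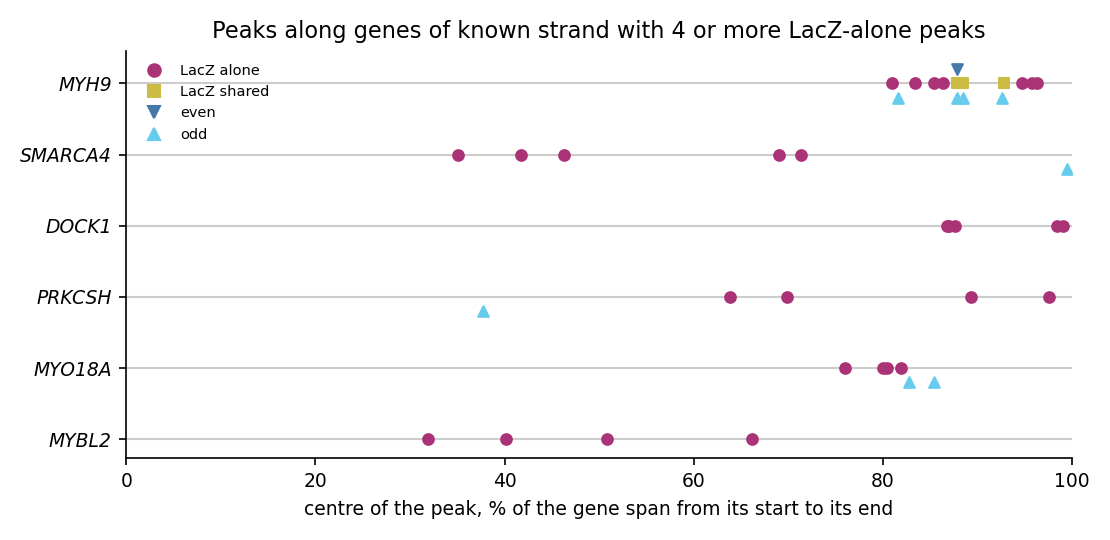
Centre of each peak as % of the gene span from start to end, for the 6 genes of known strand with at least 4 LacZ-alone peaks; circles are LacZ-alone, squares shared LacZ, and triangles even (down) or odd (up) peaks. MYH9 has its 7 LacZ-alone peaks at 81.0 to 96.3% and DOCK1 its 5 at 86.8 to 99.1%.

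Of the 372 genes, 302 (81.2%) held no even or odd peak anywhere, with 403 members. The other 70 held 118 members and an even or odd peak elsewhere in the gene: 15 had both, 25 even only and 30 odd only. A LacZ peak shared with another list was in 15 of the 372. These genes were chosen by peaks that shared no base with the other lists. The like share for genes with even-alone or odd-alone peaks is not given, so the 81.2% is not read as particular to LacZ. LacZ-alone peaks were in 43.9% of the 847 genes that held any peak, even-alone peaks in 28.2% and odd-alone peaks in 29.8%, and these shares are the base for the gene groups that follow.

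Strand was known for the genes of 426 of the 521 members in genes (81.8%), and the position was measured from the start of transcription. With the span cut into 5 equal parts, 13.1, 14.1, 15.7, 24.2 and 32.4% (28.0 to 37.1%) of these lay in the parts from start to end. The median was 66.7% along the span. For odd-alone peaks the last part held 34.7% (29.5 to 40.1%) and the median was 68.7%. Strand was known for fewer of the in-gene peaks of the other classes, 79.0% of even-alone and 78.7% of shared LacZ peaks. The last part held 29.7% (24.4 to 35.5%) and 33.3% (24.0 to 43.7%) of these, so the lean to the end was not particular to the members.

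**Figure D4:**
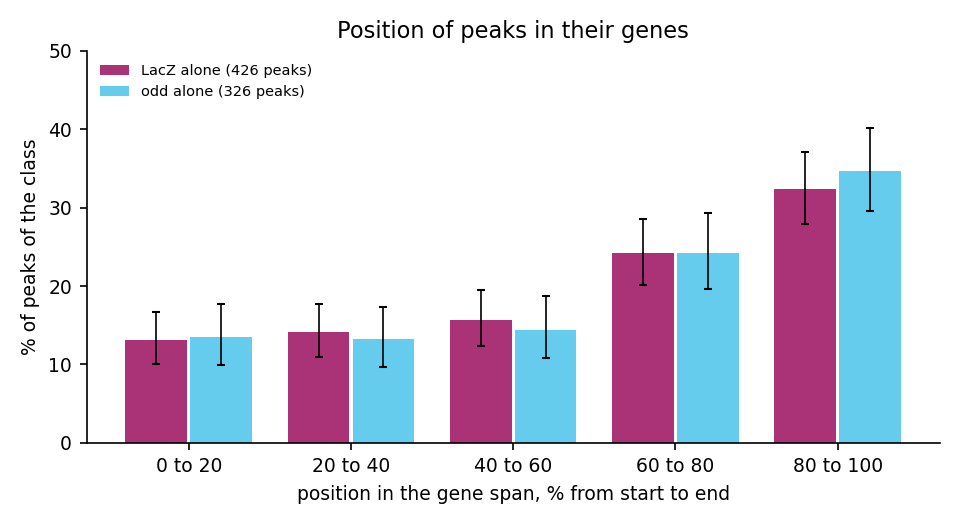
Share of peaks (%) in 5 equal parts of the gene span, from start to end, for LacZ-alone and odd-alone peaks with 95% exact intervals of counting error. The last part holds 32.4% of LacZ-alone and 34.7% of odd-alone peaks.

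Gene groups were read from 14 lists, chosen with earlier results of these data known. Shares are over the listed genes with any peak, and from these small numbers nothing particular to a list is read. Extracellular matrix and adhesion genes held LacZ-alone peaks in 9 of 13 (69.2%), against 43.9% of the 847 genes, even-alone peaks in 4 and odd-alone in 3. LAMC1, a laminin chain of basement membranes, had peaks of 268, 235 and 90 reads per bin. The type IV collagen genes COL4A1 (84, 87 and 77) and COL4A2 (195 and 201) and the laminin gene LAMA1 (139) followed. An even or odd peak was also in 4 of the 9 genes, among them LAMC1 (1 even) and COL4A1 (4 even and 3 odd). FN1, fibronectin, had 248, FAT1, a giant cadherin, 107 and LAMB1, a laminin chain, 43, and these 3 fall outside the rule for named genes.

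Microtubule and spindle genes held LacZ-alone peaks in 12 of 22 (54.5%), even-alone in 5 and odd-alone in 7. The microtubule-associated proteins MAP7D1 (81, 425 and 385), MAP1A (438, 362 and 49), MAP1B (187) and MAP2 (103 and 116) were among them. INCENP, a scaffold of the chromosomal passenger complex, had 83, 180 and 238 and CAMSAP1, which binds microtubule minus ends, 164.5 and 148. MAP7D1, MAP2 and CAMSAP1 held no even or odd peak, while INCENP held 3 odd peaks, MAP1A 2 even peaks and MAP1B 2 even and 2 odd peaks.

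Actin, myosin and membrane skeleton genes held LacZ-alone peaks in 9 of 22 (40.9%), near the 43.9% of all genes. They include MYH9, MYO18A and SGCZ, described above, NES, the intermediate filament protein nestin (179), SPTBN1, a spectrin (46 and 148) and ACTN1, an actinin (119). Even or odd peaks were also in 6 of the 9, and NES held 1 shared LacZ, 2 even and 1 odd peak. Of 8 muscle and sarcomere genes with any peak 2 held LacZ-alone peaks: the tropomyosins TPM1 (142 and 141.5) and TPM2 (287).

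Chromatin regulators and coactivators held them in 11 of 28 (39.3%), with even-alone peaks in 11 and odd-alone in 13. Beside NACC1, NELFA and SMARCA4, CREBBP, a histone acetyltransferase, had 222. CREBBP also held 3 shared LacZ, 3 even and 4 odd peaks, and 6 of the 11 genes held an even or odd peak. Splicing and RNA binding genes held them in 11 of 36 (30.6%), even-alone peaks in 15. SF3A2 of the U2 snRNP had 255.5, HNRNPM 232, RBM33 153 and 156.5, RBM10 150 and HNRNPUL2 99.5 and 101. Among the 11 splicing and RNA binding genes, 5 also held an even or odd peak.

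Translation genes held LacZ-alone peaks in 4 of 11 (36.4%): GCN1, an activator of the eIF2 kinase GCN2, had 95 and 105, EIF5B 123.5, the elongation factor subunit EEF1G 52 and EIF3A of the eIF3 complex 48. EIF5B also held 3 even peaks, and EIF3A 3 shared LacZ, 3 even and 5 odd peaks. Nucleolus and ribosome assembly genes held them in 7 of 20, even-alone peaks in 9 and odd-alone in 3. NOP56, a core protein of box C/D particles, had 116, RRP1 119, DDX54 95, TCOF1 42 to 66.5, DDX24 61.7 and RRP12 57.5. TCOF1 also held 2 odd and RRP12 5 even peaks. Of the 76 ribosomal protein genes RPL7 alone held a peak of any list, with LacZ-alone peaks of 193 and 147, and RPL7 has pseudogene copies whose reads cannot be told apart.

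Ion channel, synaptic and neuronal membrane genes held LacZ-alone peaks in 7 of 9 (77.8%), even-alone in 4 and odd-alone in 2. Levels were low to moderate: GABRG3, a subunit of the GABA-A receptor, had 153, RBFOX1, a splicing regulator, 121, CTNNA2, an alpha-catenin, 76, KCNQ5, a potassium channel, 66 and AUTS2 51.5. All 7 genes span over 200000 bases, 3 of them also held an even or odd peak, and the neuronal markers held no peak. Signalling genes of the Notch, Wnt, Hedgehog and receptor tyrosine kinase pathways held none of their 5 genes with a peak as LacZ-alone, and ubiquitin and protein turnover genes none of 8. Genes of this kind outside that list did hold LacZ-alone peaks, among them the ubiquitin ligase PELI1 and the proteasome genes PSMC3 (131) and PSMC5 (127). PSMC3 and PSMC5 were named after their values were seen. The count of none thus holds for the listed genes only. The lists of structural noncoding RNA and of long noncoding RNA held no peak in any list, but only 15 of 19 and 17 of 18 of their genes were annotated. Genes on scaffolds were left out, so a peak over a copy there counts as outside genes. The absence of these RNAs is therefore not shown.

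**Figure D5:**
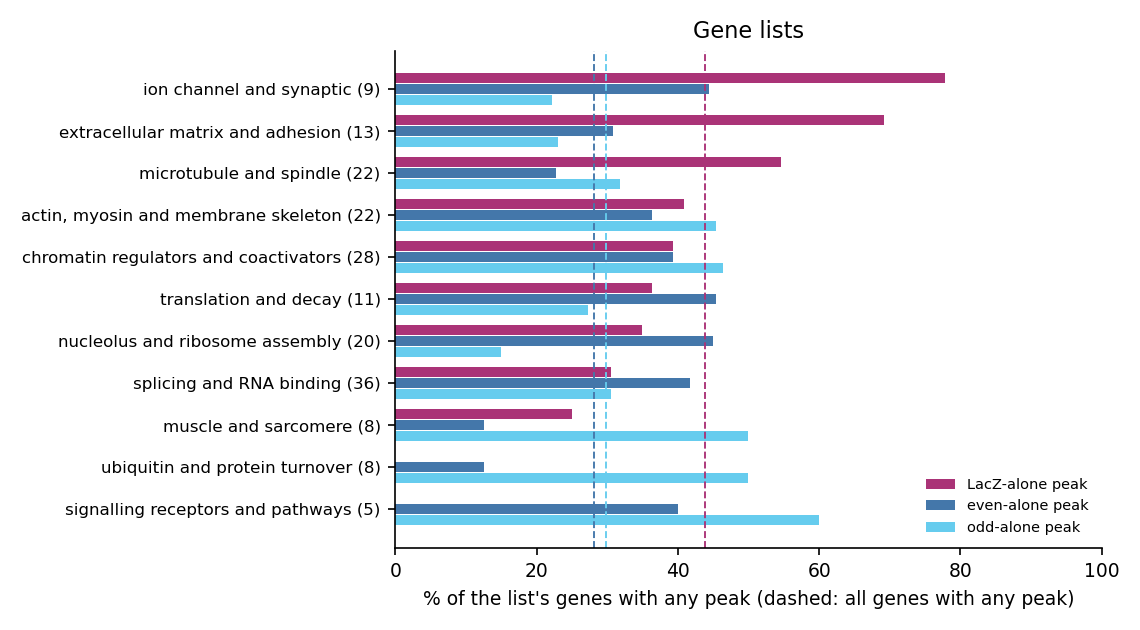
Share (%) of genes with any peak that hold a LacZ-alone, even-alone or odd-alone peak, per gene list, with lines at the shares over all 847 genes (43.9, 28.2 and 29.8%). The matrix and adhesion list stands at 69.2% and the ion channel and synaptic list at 77.8% for LacZ-alone peaks, from 13 and 9 genes.

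By chromosome, 69 members lay on chromosome 1 (11.5%) and 64 on chromosome 19 (10.7%, 8.33 to 13.4%). Chromosome 19 held 5.08% (3.09 to 7.82%) of even-alone and 8.52% (5.97 to 11.7%) of odd-alone peaks, and 7.09% of the coding genes of the table. Chromosome 9 held 36 members (6.01%, 4.24 to 8.22%), 2.94% (1.48 to 5.20%) of even-alone and 4.51% (2.70 to 7.04%) of odd-alone peaks, and 3.90% of coding genes. Chromosome 22 held 16 members (2.67%, 1.53 to 4.30%), 0.535% (0.0648 to 1.92%) of even-alone and 1.75% (0.708 to 3.58%) of odd-alone peaks, and 2.21% of coding genes. MYH9 alone gave 7 of the 16 members. On all 3 of these chromosomes the LacZ-alone and odd-alone intervals overlap.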

How the data were processed

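The members and the gene lists were chosen with earlier results of these data known. Per the labels' protocols, Qiazol and miRNeasy kits gave the RNA and Ovation kits the libraries. The submitters' processing notes name STAR 2.5.2b, bcl2fastq 2.0.2, SAMtools, Picard, bedtools and Trimmomatic, and the build GRCh38. Peak caller settings are not stated in the sources.

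Each deposited list has 8 columns without a header. The signal deposited by the authors was read as reads per 170-base bin, averaged over the bins of a peak, since reads per peak were whole numbers in 100% of peaks (tolerance 0.02). Library depth is unknown and reads were not scaled. Per the deposited files, the authors' p-value was at most 0.00999867. The deposited score in column 8 was read in steps of 1/4434 (tolerance 0.005 steps).

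Peaks were compared by shared bases (minimum 1) and placed in gene spans of the RefSeq table of GRCh38.p14, with 794 scaffold rows left out. Named genes were those of the 15 smallest p-values in genes, the 10 genes with most reads, genes with at least 4 members, the 5 widest peaks, the 6 strongest peaks outside genes and up to 6 genes a list. Some genes that this rule names are not reported here. Python 3.11.15, pandas 2.3.3 and SciPy 1.17.1 were used, and peak overlap was tested on simulated data.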

Additional observations from a re-analysis of the deposited data

How the results depend on the processing

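No paired analysis was possible because each probe set had 1 library, and for the same reason no replicate could be left out. Limiting p-values to 0.001 moved the members to 238, their genes to 153, the share outside genes to 10.1%, the median reads per bin to 182 and the share of 1-bin peaks to 35.3%. Limiting LacZ peaks to the level of the weakest odd peak moved them to 324, 200, 17.6%, 172 and 38.3%, and the share with the stand-in value to 50.3%. Without stand-in peaks the share outside genes was 5.72%, the median 82 and the share of 1-bin peaks 58.1%. Trimming the lists to the shortest gave a median of 138 and 42.1% of 1 bin, and coding spans alone 17.7% outside genes. The other 21 values stayed within 1.5 times the number of members or genes, or within the 95% interval of a share or median. Within that limit, trimming left 409 members in 261 genes, and leaving out stand-in peaks 437 members in 281 genes, which was 79.02% of the LacZ list. The share outside genes without chromosome Y and contigs was 12.1%, an alternative chosen after seeing the data. The unknown depth limits every comparison between lists, and the cause of these shifts was not tested.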
